A study of Mus musculus with 8 samples.

Results

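The 9 genes described here encode ion channels and ion transporters of the retinal pigment epithelium (RPE): the potassium channel Kcnj13 and the potassium channel beta subunit Kcnab1, the TRP channels Trpm1 and Trpm3, the anion channels and exchanger Best1, Clcn2 and Slc26a7, the cotransporter Slc12a2 and the sodium pump subunit Atp1b1. They were chosen by name among known RPE ion transport genes and selected on the genotype difference measured in these same libraries, so their values are given as a description and no p is attached to any of them. They are 9 of the 31053 genes listed in the files, and each of the 9 was among the 12889 genes that passed the filter of at least 1 CPM (counts scaled to the library size) in at least 4 libraries. RNA came from isolated RPE of mice at postnatal day 29 (P29) on the C57/Bl6 strain, with 4 Bbs8+/+ wild type littermates and 4 Bbs8-/- knockout mice, and each animal gave 1 library according to the methods of the study. Sex was not determined, no treatment was given, and the knockout was not restricted to the RPE, so the photoreceptors facing these cells also lacked Bbs8. The libraries were of the QuantSeq 3′ type, which reads the end of polyadenylated transcripts, and the measure is the number of reads on each gene.

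Among its tasks the RPE transports ions and water out of the retina towards the blood, which it can do because its apical and basal membranes carry different channels and pumps. The sodium pump sits on its apical side, unlike in most epithelia, and the sodium gradient it makes drives the uptake of chloride and potassium by the apical cotransporter. Potassium returns to the subretinal space through apical inward rectifier channels, while chloride leaves through basolateral channels and water follows.

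The total on genes ranged from 2389835 to 3093428 counts per library, and a floor of 3 counts corresponded to 1.02 to 1.23 CPM. This floor covers counting error only. The targeted gene Ttc8, whose product is BBS8, had 105, 142, 144 and 116 counts in Bbs8+/+ and 15, 5, 14 and 15 in Bbs8-/-, a log2 fold change of -3.34 (SE 0.294, edgeR quasi-likelihood adjusted p = 2.48e-11). The sources used here do not say whether these 3′ reads lie within the deleted part of the gene. Markers of the labelled tissue were abundant, with Rpe65 at 4648 CPM and Rlbp1 at 1842 CPM in Bbs8+/+. The libraries also held photoreceptor RNA, and the summed rod and cone markers, nearly all of it from rod genes, ranged from 54161 to 58537 CPM in Bbs8+/+ and from 22171 to 22713 CPM in Bbs8-/-. Of the 14 genes 10 fell and 3 rose, the latter being cone genes at low levels, namely Opn1sw (75.9 to 128 CPM), Opn1mw (14.1 to 25.2 CPM) and Gnat2 (21.8 to 35.7 CPM). Bbs8+/+ replicate 1 stood apart from the other libraries of its genotype (chi-square per degree of freedom of 6.07 to 7.51 against each, and 2.87 to 3.41 among the other 3), and the values without it are given where they matter. Levels below are CPM scaled by TMM, with the mean ± SD over n = 4 libraries per genotype. In bulk RNA of this kind fewer cells of a type and less RNA per cell cannot be told apart.

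Of the 9 genes, 6 were past the threshold of 0.05 on the adjusted p in the direction of higher levels in Bbs8-/- (Slc26a7, Slc12a2, Clcn2, Trpm3, Kcnab1 and Atp1b1), while 5.46 percent of all tested genes were called in that direction. By edgeR's quasi-likelihood test none of the 9 was past it in the other direction, where 6.8 percent of tested genes were called, and 0 were lower at an unadjusted p under 0.05 or with DESeq2. The levels in Bbs8+/+ and Bbs8-/- libraries were fully separate, with no overlap, for 5 of the 9 and for 16.1 percent of tested genes. Because the genes were chosen with this comparison in view, nothing can be read from these counts. The median log2 fold change of the 9 was 0.59, beside 0.02 over all tested genes. Together they took 2093 ± 48.7 CPM in Bbs8+/+ and 3040 ± 132 CPM in Bbs8-/-, which is 1.45-fold more, and most of this difference came from Slc26a7, Atp1b1, Trpm3 and Slc12a2.

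**Figure D1:**
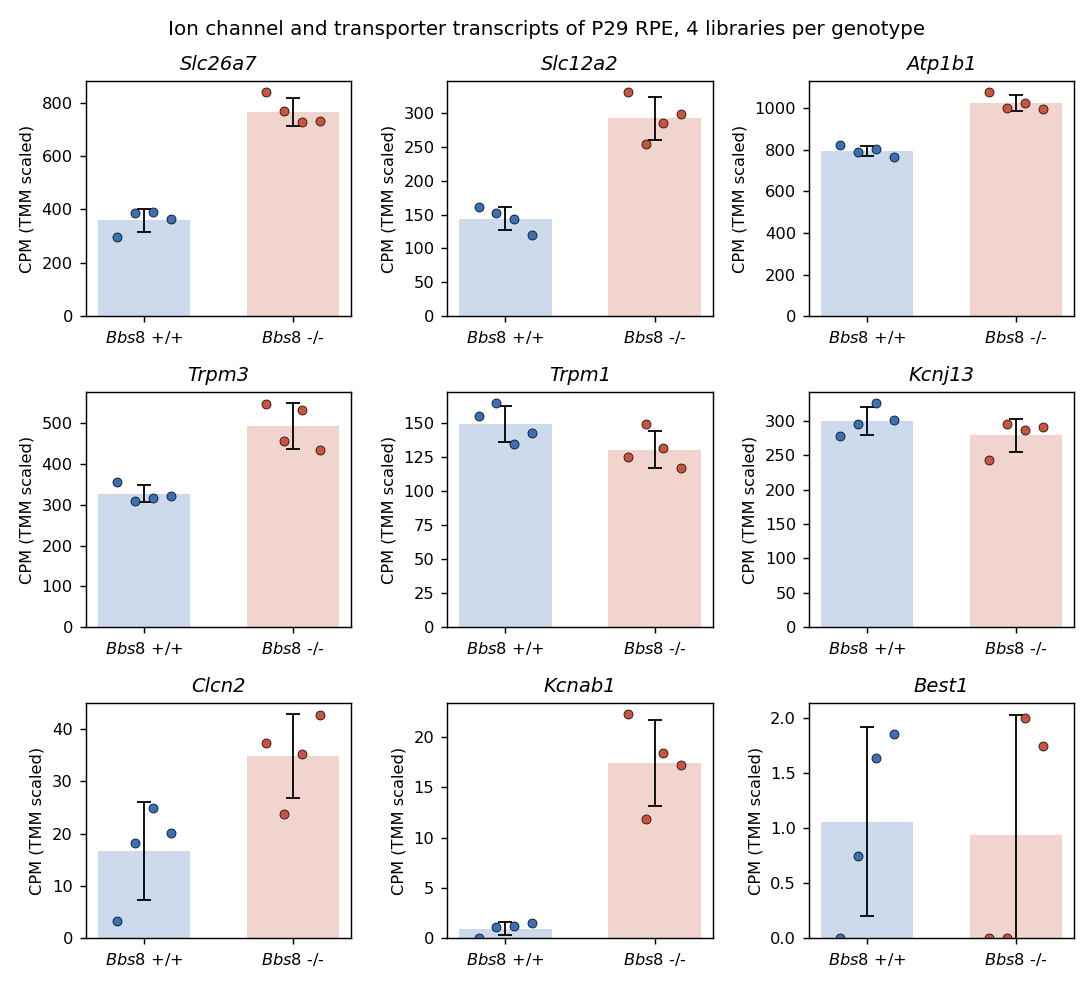
Level of the 9 genes in each library, in CPM scaled by TMM on a linear axis from 0, with Bbs8+/+ in blue and Bbs8-/- in red. Points are single libraries in the order of their replicate numbers, bars are means and error bars are SD (n = 4, cut at 0 for Best1). Slc26a7, Slc12a2, Atp1b1, Trpm3 and Kcnab1 show no overlap between genotypes, while the points of Trpm1, Kcnj13, Clcn2 and Best1 overlap.

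The levels of the 9 genes spanned a wide range. Since a 3′ library reads each transcript near its end, CPM were not divided by gene length, and an order of genes by CPM also reflects how well each transcript end is primed and counted. In Bbs8+/+ the order was Atp1b1, Slc26a7, Trpm3, Kcnj13, Trpm1, Slc12a2, Clcn2, Best1 and Kcnab1. Neighbours whose Bbs8+/+ ranges overlapped were Slc26a7 with Trpm3, Trpm3 with Kcnj13, Trpm1 with Slc12a2, and Best1 with Kcnab1. The highest, Atp1b1, stood at the 99.2 percentile of tested genes by its Bbs8+/+ mean, Kcnj13 at 96.7, Slc12a2 at 91.2, Clcn2 at 47.5, and Best1 and Kcnab1 at 2.96 and 2.30. In Bbs8-/- Slc12a2 reached the level of Kcnj13, with ranges that overlapped, whereas it lay below Kcnj13 in every Bbs8+/+ library. Kcnab1 moved from the level of Best1 to above it in every Bbs8-/- library.

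Kcnj13 encodes Kir7.1, an inward rectifier potassium channel of the apical RPE membrane. Its level was 277, 295, 325 and 300 CPM in Bbs8+/+ and 243, 295, 286 and 290 CPM in Bbs8-/-. The genotypes overlapped, and only Bbs8-/- replicate 1 lay outside the Bbs8+/+ range. The means were 299 ± 19.8 and 279 ± 24.2 CPM, a log2 fold change of -0.10 (SE 0.0924, 95% interval -0.33 to 0.12) that was not past the threshold. The whole gene, at chr1:87386363-87394729 on the minus strand of GRCm38, lies within Gigyf2 on the opposite strand. The annotated 3′ ends of the pair lie apart, at 87386363 for Kcnj13 and at 87450796 for Gigyf2. The strand setting of the counting is not given in the sources used here. Whether reads of Gigyf2 from elsewhere in its transcript fell within Kcnj13 was not tested. Gigyf2 itself went from 128 to 102 CPM (edgeR adjusted p = 0.0811).

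Of the 7 genes with a promoter entry, Kcnj13 and Trpm1 were those that held the M-box TCATGTG. The pigment cell factor MITF is known to bind this motif. The promoters of Kcnj13 and Trpm1 are shown because these were also the pair of well expressed genes whose levels were not past the threshold. This pair was picked from these same data, and a link of motif and level was not tested. The sequences are the 250 bases before the RefSeq start in GRCm38.p6, given 5′ to 3′ on the strand of the gene, at chr1:87394730-87394979 (minus strand) for Kcnj13 and chr7:64153585-64153834 (plus strand) for Trpm1. Capitals mark the motif, which reads CACATGA where it lies on the other strand.
Kcnj13: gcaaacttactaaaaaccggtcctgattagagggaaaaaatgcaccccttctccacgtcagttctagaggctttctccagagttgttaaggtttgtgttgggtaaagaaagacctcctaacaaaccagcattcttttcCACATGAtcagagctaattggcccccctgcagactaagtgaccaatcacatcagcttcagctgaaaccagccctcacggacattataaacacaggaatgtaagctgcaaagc
Trpm1: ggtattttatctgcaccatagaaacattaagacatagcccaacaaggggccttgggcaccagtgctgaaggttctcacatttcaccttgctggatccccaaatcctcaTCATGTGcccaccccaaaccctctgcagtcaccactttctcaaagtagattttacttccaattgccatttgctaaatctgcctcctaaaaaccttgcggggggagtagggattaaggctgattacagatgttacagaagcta
The motif began at position -112 in Kcnj13 and at -142 in Trpm1, counted from the start site. Over all 32851 promoter windows of 300 bases in the table, 3.77% held TCATGTG on either strand. The E-box CACGTG was found in 7.15% of all windows, and among the 9 genes in 2 of the 3 windows of Kcnab1 and in the second window of Trpm1. TAATCC, a core bound by OTX2, was found in 7.06% of all windows and once each in the first Trpm1 window and in Best1. None of these matched sites overlapped another, and the windows of Atp1b1, Clcn2 and Trpm3 held none of the 3 motifs, which says only that these letters are not there. Slc12a2 and Slc26a7 had no entry. Mitf itself was at 107 CPM in Bbs8+/+ and 132 CPM in Bbs8-/- (edgeR adjusted p = 0.133), and Otx2 rose from 912 to 1127 CPM (adjusted p = 0.00202).

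Kcnab1 encodes a beta subunit that binds voltage-gated potassium channels of the Shaker family and speeds their inactivation. It had 0, 3, 3 and 4 counts in Bbs8+/+ and 54, 33, 46 and 49 counts in Bbs8-/-. Every Bbs8+/+ library was near the floor and every Bbs8-/- library was well above it. The means were 0.960 ± 0.658 and 17.4 ± 4.29 CPM. Over the summed counts, 10 against 182, the ratio of the genotypes was 18.5 (95% exact interval 9.84 to 39.3, counting error only), and the fitted log2 fold change of 4.15 (SE 0.518) rests on so few Bbs8+/+ counts that it depends on the prior count. It stayed between 3.71 and 4.45 with any single library left out.

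The related beta subunit Kcnab2 moved the other way, falling from 77.3 to 38.5 CPM (fold 0.498, edgeR adjusted p = 2.72e-05). Kcnab1 therefore made up 1.31 ± 0.895% of the counts on the pair in Bbs8+/+ and 31.3 ± 7.34% in Bbs8-/-. The fold of Kcnab2 was near that of the summed photoreceptor channel genes described below (0.500). The part of photoreceptor RNA in the fall of Kcnab2, and so in this share, was not tested. Of the alpha subunits that these beta subunits can bind, Kcna2 was the most abundant, at 66.1 CPM in Bbs8+/+ and 80.1 CPM in Bbs8-/- (edgeR adjusted p = 0.224). Kcna1 had 2, 5, 8 and 9 counts in Bbs8+/+ and 0, 1, 0 and 0 in Bbs8-/- and was not tested. Kcna4, Kcna6 and Kcnab3 were near the floor in both genotypes, and Kcna3 had no count in any library. A gene on the same strand, AC113458.1, overlaps the 5′ part of Kcnab1 over 114318 bases. Reads shared by both within this overlap may have been left uncounted. It ends at position 65223701 of chromosome 3, before the annotated 3′ end of Kcnab1 at 65378223. The antisense genes of Kcnab1, A330015K06Rik and A730090N16Rik, had 0 counts in every library.

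Trpm1 and Trpm3 encode cation channels of the melastatin family, and each carries a microRNA gene in an intron. Trpm1 is known from melanocytes and from ON bipolar cells, where it is the channel of the light response, and Trpm3 is a calcium-permeable channel opened by heat and by neurosteroids. The microRNAs within them share their seed and are both abundant in the RPE. Their mature 5p sequences are shown, with the seed (bases 2 to 8) in capitals, since they are the element that the 2 host genes have in common.
mmu-miR-211-5p: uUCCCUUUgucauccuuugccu
mmu-miR-204-5p: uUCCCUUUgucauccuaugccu
The first lies in Trpm1 at chr7:64205831-64205852 and the second in Trpm3 at chr19:22750610-22750631, both on the plus strand of GRCm38.p6, on the same strand as their host genes. They were identical at 21 of 22 bases. The difference is A17U, with the base of mmu-miR-204-5p first and positions counted from its 5′ end. The seed UCCCUUU was held by 3 of the 1679 mature mouse microRNAs of the RefSeq table. The microRNAs were not measured, since the libraries read polyadenylated transcripts, and the values below are those of the host messenger RNAs alone.

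The levels of the host genes moved apart. Trpm3 was at 357, 310, 318 and 322 CPM in Bbs8+/+ and at 547, 455, 533 and 435 CPM in Bbs8-/-. All Bbs8-/- libraries lay above all Bbs8+/+ libraries, by at least 1.22-fold. The means were 327 ± 20.8 and 493 ± 55.8 CPM, a log2 fold change of 0.59 (SE 0.0886), with 0.54 to 0.65 when any library was left out.

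Trpm1 was at 155, 164, 134 and 143 CPM in Bbs8+/+ and at 125, 149, 131 and 117 CPM in Bbs8-/-. The genotypes overlapped and 3 of the 4 Bbs8-/- libraries lay below every Bbs8+/+ library. The means were 149 ± 13.3 and 131 ± 13.7 CPM, a log2 fold change of -0.19 (SE 0.1145, 95% interval -0.47 to 0.09) that was not past the threshold. Trpm3 accordingly held 68.7 ± 2.26% of the counts on the 2 genes in Bbs8+/+ and 79.0 ± 2.62% in Bbs8-/-, with no overlap between genotypes.

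Markers of the other cells known to express Trpm1 gave the following values. Among bipolar cell markers Grm6 was at 1.84 CPM in Bbs8+/+ and 1.82 CPM in Bbs8-/- and Nyx at 0.757 and 0.626 CPM, all near the floor or below it. The summed list of 10 bipolar genes ranged from 154 to 176 CPM in Bbs8+/+ and from 177 to 200 CPM in Bbs8-/-, with 1 of 9 tested members past the threshold upwards and 1 downwards. The higher sum came from Trnp1, at 18.6 and 80.1 CPM, while Prkca was at 111 and 75.7 CPM and 6 of the 9 tested genes had lower levels in Bbs8-/-. The 8 melanocyte markers summed to 3963 to 4450 CPM and 4124 to 4423 CPM (exact two-sided permutation p = 0.914), most of it from Dct, which pigmented RPE cells also express, and Sox10 was at 141 and 159 CPM. The part of melanocytes in the level of Trpm1 was not tested.

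Slc26a7 encodes an anion exchanger that can also conduct chloride. It was at 298, 388, 392 and 363 CPM in Bbs8+/+ and at 840, 770, 727 and 730 CPM in Bbs8-/-. The lowest Bbs8-/- library lay 1.86-fold above the highest Bbs8+/+ library, which was the widest such gap among the 9 genes after that of Kcnab1. Its means of 360 ± 43.5 and 767 ± 52.4 CPM gave a log2 fold change of 1.09 (SE 0.0861), a fold of 2.13, and 1.01 to 1.13 on the log2 scale when any library was left out. In absolute terms it had the largest difference of the 9, at 407 CPM.

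Clcn2 encodes ClC-2, a chloride channel opened by hyperpolarization, and its loss is known to cause photoreceptor and germ cell degeneration in mice. It had 10, 49, 61 and 54 counts in Bbs8+/+ and 91, 66, 88 and 122 in Bbs8-/-, or 3.39, 18.3, 24.98 and 20.1 CPM against 37.4, 23.7, 35.3 and 42.7 CPM. Bbs8+/+ replicate 1 was far below its group, and Bbs8-/- replicate 2 lay just under the highest Bbs8+/+ library. The means were 16.7 ± 9.31 and 34.8 ± 8.03 CPM, a log2 fold change of 1.07 (SE 0.311), which became 0.72 without Bbs8+/+ replicate 1. It was no longer past the threshold with DESeq2, nor without Bbs8-/- replicate 4, where the log2 fold change was 0.95.

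Best1 encodes bestrophin-1, a calcium-activated chloride channel of the basolateral RPE membrane whose mutation causes vitelliform macular dystrophy. In these libraries it had 0, 2, 4 and 5 counts in Bbs8+/+ and 0, 0, 5 and 5 counts in Bbs8-/-. With 11 and 10 counts in all, and means of 1.06 ± 0.856 and 0.939 ± 1.09 CPM, it was at the floor in both genotypes and no fold is given. A genotype difference in Best1 was not detectable with so few counts. The 3′ end of Best1 on chromosome 19 lies 75 bases from that of Fth1 on the opposite strand, a gene with 738 and 780 CPM. At least 1 coding transcript of each of the 9 genes, Best1 included, ended within 50 bases after a polyadenylation signal (AATAAA or ATTAAA), as did those of 77.9% of 21877 genes.

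Among the other chloride and anion genes, 26 of 37 were tested, with 1 past the threshold upwards, 2 downwards and a median log2 fold change of 0.06. Clic6, a chloride intracellular channel gene, rose from 388 to 473 CPM (edgeR adjusted p = 0.0126). The calcium-activated chloride channel Ano2 fell from 42.2 to 14.2 CPM (adjusted p = 1.57e-05) and the sulfate transporter Slc26a2 from 51.0 to 31.2 CPM (adjusted p = 0.00880, or 0.0632 without Bbs8+/+ replicate 4). Clcn3 went from 273 to 301 CPM (adjusted p = 0.410), while Best2 had no count and Cftr had counts, 3 of them, only in Bbs8-/- replicate 1.

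Slc12a2 encodes NKCC1, the cotransporter that carries sodium, potassium and chloride into the cell across the apical RPE membrane. It was at 161, 152, 143 and 121 CPM in Bbs8+/+ and at 331, 255, 285 and 299 CPM in Bbs8-/-. The genotypes did not overlap, and the lowest Bbs8-/- library was 1.58-fold above the highest Bbs8+/+ library. The means of 144 ± 17.4 and 293 ± 31.7 CPM gave a fold of 2.03, with a log2 fold change of 1.02 (SE 0.106) that ranged from 0.94 to 1.08 when any library was left out. The potassium and chloride cotransporters, which carry chloride out of the cell, included Slc12a4 and Slc12a7, neither of them past the threshold. Slc12a4 went from 32.3 to 21.7 CPM (adjusted p = 0.125) and Slc12a7 from 23.4 to 14.3 CPM (adjusted p = 0.0959). The kinases that act on Slc12a2 gave no call either, with Wnk1 at 282 and 266 CPM (adjusted p = 0.682), Stk39 at 120 and 117 CPM (adjusted p = 0.930) and Oxsr1 at 9.46 and 10.7 CPM (adjusted p = 0.830).

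In the list of 38 other cotransporters and exchangers 26 were tested, of which 3 were past the threshold upwards and 1 downwards. The phosphate transporter Slc20a2 rose from 57.9 to 126 CPM (adjusted p = 0.00131), although it was not past the threshold with DESeq2 (adjusted p = 0.190). Like Clcn2 it was low in Bbs8+/+ replicate 1, at 10.8 CPM beside 65.0 to 85.2 CPM in the others. Its log2 fold change of 1.13 became 0.77 without that library. The anion exchanger Slc4a2, which is basolateral in many epithelia, rose from 185 to 242 CPM (adjusted p = 0.00518), and the bicarbonate cotransporter Slc4a7 fell from 208 to 106 CPM (adjusted p = 9.41e-09). Slc4a5, the most abundant of the list, was at 681 and 761 CPM (adjusted p = 0.170).

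Atp1b1 encodes the beta-1 subunit of the sodium pump, which brings the catalytic subunit to the membrane. It was at 821, 790, 805 and 764 CPM in Bbs8+/+ and at 1078, 1002, 1028 and 995 CPM in Bbs8-/-. The genotypes did not overlap, and its spread between libraries was the smallest of the 9, with a coefficient of variation of 3.08% in Bbs8+/+ and 3.65% in Bbs8-/-. The means of 795 ± 24.5 and 1026 ± 37.4 CPM gave a log2 fold change of 0.37 (SE 0.0684), a fold of 1.29, with 0.34 to 0.38 when any library was left out. With the biological coefficient of variation fixed at 0.2 this difference was no longer past the threshold. The 3′ end of Atp1b1 overlaps that of Nme7 by 617 bases on the opposite strand, and Nme7 was at 7.90 and 10.0 CPM.

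Other pump subunits were read from the same fit. Atp1b2 rose from 678 to 827 CPM (fold 1.22, adjusted p = 0.00591). Atp1b1 held 53.0 ± 2.40% of the counts on beta subunits in Bbs8+/+ and 54.2 ± 1.42% in Bbs8-/-, with ranges that overlapped, so the beta-1 to beta-2 balance shifted by less than the spread between libraries. Of the small regulatory subunits, Fxyd3 rose from 27.8 to 152 CPM (fold 5.44, adjusted p = 1.38e-16) and Fxyd1 from 64.6 to 136 CPM (fold 2.10, adjusted p = 5.15e-08).

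**Figure D2:**
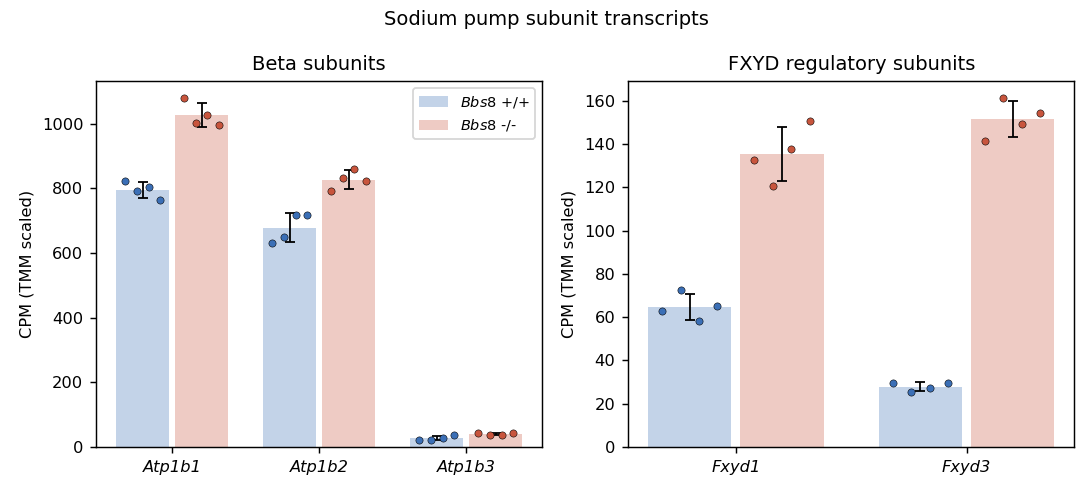
Levels of sodium pump beta subunit (left) and FXYD regulatory subunit (right) transcripts, in CPM scaled by TMM on linear axes from 0. Points are libraries, bars means and error bars SD (n = 4). Atp1b1, Atp1b2, Fxyd1 and Fxyd3 were higher in every Bbs8-/- library (red) than in any Bbs8+/+ library (blue).

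Over the 7 lists of other ion transport genes, 146 of 236 genes were tested, of which 15 (10.3%) were past the threshold upwards and 11 (7.53%) downwards, with a median log2 fold change of 0.11. These shares stand beside 5.46 percent and 6.8 percent of all tested genes and say nothing particular about ion transport. Of 29 tested potassium channel genes, 3 rose, Kcng4 and Kcnh2 among them at low levels, and 2 fell, which were Kcnab2 and Kcnj14, the latter from 165 to 74.8 CPM (adjusted p = 2.14e-09). In the TRP and polycystin list edgeR's quasi-likelihood test called 0 of 10 tested genes, with 0 at an unadjusted p under 0.05 and 0 with DESeq2 or the likelihood ratio test, and its most abundant gene, Trpm7, was at 93.04 and 103 CPM. Of 16 tested pump genes 4 rose and 2 fell, of 24 calcium channel genes 2 rose and 2 fell, and of 15 genes of water, bicarbonate and regulatory kinases 2 rose (Nedd4l and Sgk1) and 2 fell (Aqp1 and Car2). Of 12 photoreceptor genes for channels, their regulators and ion exchangers, 9 were past the threshold downwards, with a median log2 fold change of -0.995. Among them Cngb1 fell from 847 to 324 CPM (edgeR adjusted p = 5.27e-17) and Cnga1 from 745 to 360 CPM (adjusted p = 9.78e-13). The other 3 had higher means in Bbs8-/- and were not past the threshold, among them the cone channel genes Cnga3, at 0.689 and 1.56 CPM, and Cngb3, at 5.33 and 7.16 CPM, besides Slc24a2, at 1.14 and 2.43 CPM.

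**Figure D3:**
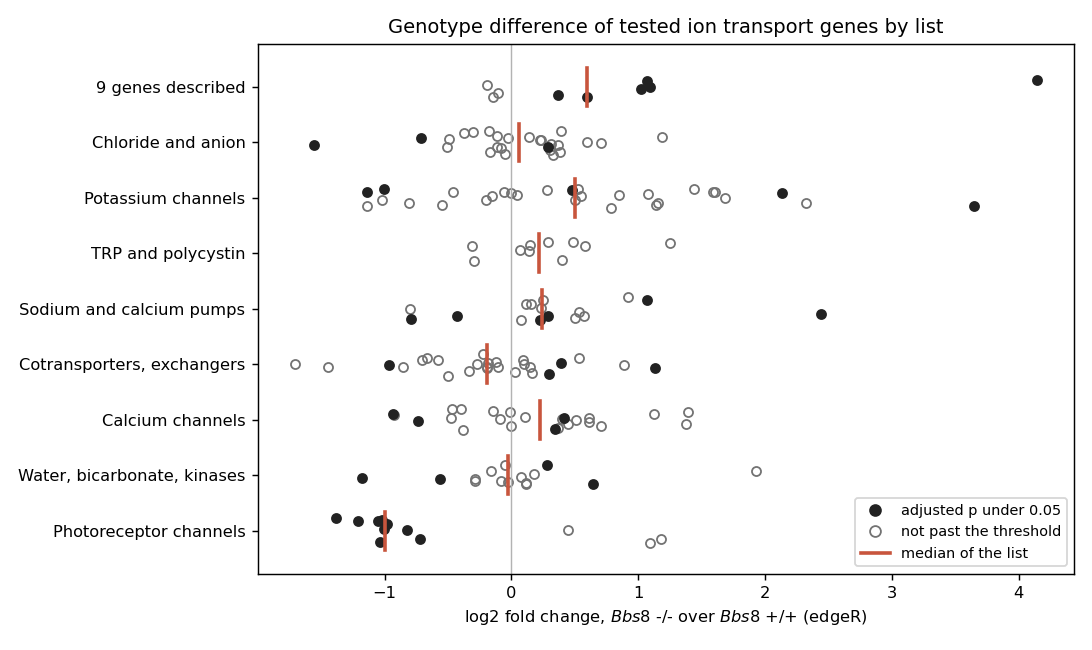
Log2 fold change (Bbs8-/- over Bbs8+/+, edgeR) of every tested gene in the set of 9 and in 8 lists of other ion transport genes. Filled points are past an adjusted p of 0.05, open points are not, and the red line is the median of the list, which is 0.59 for the 9 genes and -0.995 for photoreceptor channels.

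Markers of several eye cells moved with genotype. Their part in the levels of the 9 genes and of the other ion transport genes was not tested. Across 13 summed lists the exact permutation test was two-sided, and its smallest possible p with 4 against 4 libraries is 0.0286, which is 0.0464 after adjustment over the 13 lists and was reached by rod and cone, photoreceptor channel, lens, erythrocyte, surface epithelium, Müller glia, bipolar and RPE markers. Lens markers, all 9 of which fell, summed to 2471 to 2698 CPM in Bbs8+/+ and 342 to 390 CPM in Bbs8-/-, and erythrocyte markers to 5163 to 5729 and 1989 to 2222 CPM. Markers that were higher in Bbs8-/-, as were 6 of the 9 genes here, were those of the surface epithelium, at 54.1 to 74.3 and 134 to 173 CPM, with 5 of 7 tested genes past the threshold upwards, and those of Müller glia, at 6221 to 6849 and 7634 to 8028 CPM. Among the former Krt5 had 0 counts in every Bbs8+/+ library and 24 to 57 in Bbs8-/-, and Krt12, which defines the corneal epithelium, had 0 counts throughout. Aqp4, Kcnj10 and Gfap of the Müller glia list were low, with higher means in Bbs8-/-. They were at 1.52 and 5.86 CPM, 0.952 and 2.91 CPM, and 1.07 and 5.78 CPM. Of 9 tested Müller glia genes 4 were past the threshold upwards and 0 downwards, with a median log2 fold change of 0.82. By fold change 7 were higher and 2 lower. Most of the sum came from Apoe (4117 and 4865 CPM), Glul (1201 and 1712 CPM) and Car14 (1058 and 1022 CPM). The cell source of these genes was not tested. The RPE list summed to 36851 to 37978 CPM in Bbs8+/+ and 45250 to 48845 CPM in Bbs8-/-, mostly through Ttr, whereas its 12 genes had a median log2 fold change of -0.02, with 3 past the threshold upwards and 4 downwards. The counts were also scaled to those RPE markers other than Ttr, an alternative chosen after seeing the data. The same 6 of the 9 genes were then past the threshold upwards. Atp1b1 was at 0.47 and Slc26a7 at 1.19 on the log2 scale, and Kcnj13 and Trpm1 had smaller differences of -0.0007 and -0.09. This scaling moved log2 fold changes upwards by a median of 0.1004, so upward calls were likely to stay.

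**Figure D4:**
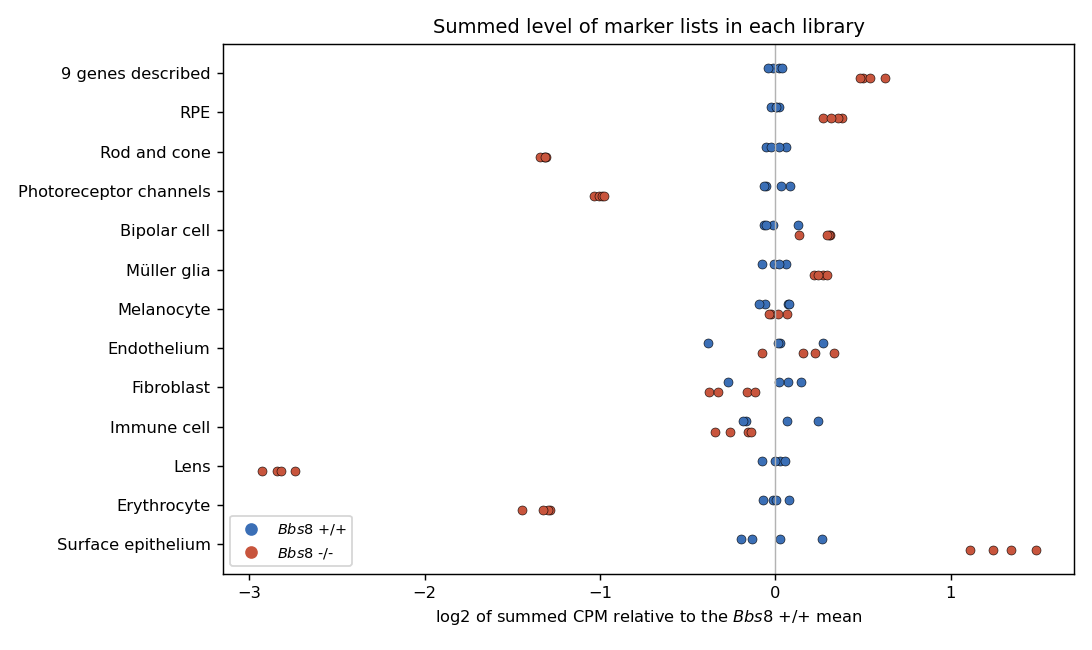
Summed level of each marker list in every library, as log2 of the summed CPM over the Bbs8+/+ mean of that list, with Bbs8+/+ in blue and Bbs8-/- in red. The 9 genes lie to the right of 0 in all 4 Bbs8-/- libraries, as do the sums of RPE (mostly Ttr), Müller glia, bipolar (through Trnp1) and surface epithelium markers, and the sums of rod and cone (mostly rod), photoreceptor channel, lens and erythrocyte markers lie to the left.

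For each gene the tested genes of at least 10 CPM with the most similar pattern were found by the root mean square difference of log2 CPM, centred on the mean over the 8 libraries. Because the genotype difference dominates this measure, it mainly finds genes with a difference of the same size. The closest to Slc26a7 was Fos, at a difference of 0.0674, followed by Soat1 and Oat. Trpm3 lay closest to Phldb2 (0.0610), then to Ttr (0.0834), the abundant transthyretin gene of the RPE, and Ppfibp2. Slc12a2 was nearest to Fuom (0.121), Apold1 and Rasl11b, and Atp1b1 to Bmpr2 (0.0469), to the chaperone gene Hspa5 (0.0486) and to Ptms. Kcnj13 was nearest to Rexo2 (0.0576), Zbtb7a and Hsbp1, and Trpm1 to Zmynd8 (0.0481), Slc25a33 and Bbx. Clcn2 was nearest to Gng5 (0.169), Slc20a2 (0.228) and Gsr, and Kcnab1 had no close match, its nearest being A2m at 0.375, which rose from 110 to 1253 CPM (adjusted p = 9.88e-27), followed by Fgf2 and Lalba. Best1, at the floor, was no closer than 0.320 to any gene (Zfp846, then Bccip and Card19).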

How the data were processed

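RNA of P29 RPE was measured in 8 QuantSeq 3′ libraries (4 per genotype). The authors trimmed reads with BBDuk (BBMap suite 37.31), aligned them with STAR to mm10 with Ensembl release 93 and counted them per gene with htseq-count, and these counts were deposited unfiltered. The strand setting is not given in the sources used here. Lines that name no gene (no feature 17.0% to 20.6%, ambiguous 0.244% to 0.296%, not uniquely aligned 32.8% to 34.5% of reads) were left out. Symbols and coordinates came from GENCODE M21 (30934 identifiers matched), and microRNAs and promoters from RefSeq (GRCm38.p6). The fit used R 4.3.3 and edgeR 4.0.16: a filter of 1 CPM or more in 4 libraries or more, TMM scaling, quasi-likelihood F test between genotypes without covariates, Benjamini-Hochberg adjustment over all 12889 genes, threshold 0.05. The filter of the study on multi-mapped reads needs alignments and was not repeated. DESeq2 1.42.0 and other settings were alternatives. The scripts were tested on simulated data. The 9 genes and all lists were chosen with earlier results of these data known. Named genes were the 9, Ttc8, their partners and markers, up to 5 rises and 5 falls per list among called genes averaging 5 CPM or more, the 3 highest in Bbs8+/+ per list, and the 3 nearest patterns per gene. Others (Kcng4, Kcnh2, Gigyf2, Nme7, Fth1 and overlapping genes) were named after their values were seen. A few genes under this rule are not reported here. No replicates were merged, since all pairs differed by more than sampling noise. Replicate numbers did not pair libraries of the genotypes (correlations of deviations -0.056 to 0.005).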

Additional observations from a re-analysis of the deposited data

Results flagged for a closer look

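Each of 142 groups of 4 libraries was examined for a library that stood apart from the other 3, by the gap to its nearest neighbour over the range of the group. Of these, 5 stood out, where chance gives about 1 in 20, or 7.1, so the number is no more than chance gives. None of the 5 was among the 9 genes. Slc4a2 was at 219 CPM in Bbs8-/- replicate 1 and at 248 to 250 CPM in the others. Slc4a7 was at 92.6 CPM in Bbs8-/- replicate 3 beside 109 to 112 CPM, and the summed bipolar markers were at 177 CPM there beside 197 to 200 CPM. Itpr2 was at 48.2 CPM in Bbs8+/+ replicate 1 beside 26.9 to 30.3 CPM, and Kcnab3, near the floor, was at 0.374 CPM in Bbs8+/+ replicate 2 beside 1.86 to 2.05 CPM.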

How the results depend on the processing

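The fold changes of the 6 genes called upwards kept their direction in all 17 alternative fits. Calls were lost for Clcn2 with DESeq2 and without Bbs8-/- replicate 4, the cause of which was not tested. Atp1b1 lost its call with a coefficient of variation fixed at 0.2, while its log2 fold change stayed at 0.37. That setting is by construction larger than its spread between libraries, which was 3.08% in Bbs8+/+ and 3.65% in Bbs8-/-. At an adjusted p of 0.01, a stricter threshold by construction, 394 genes rose and 571 fell, and 6 other ion transport genes rose. With any library left out, other ion transport genes that rose numbered 9 to 16 (9 without Bbs8-/- replicate 2), those that fell 9 to 12, and the genes called among the 9 numbered 5 to 6. Over all genes 704 rose and 877 fell; scaling by library size alone gave 1008 and 654, with a median shift of 0.0891 on the log2 scale, and scaling to RPE markers other than Ttr, chosen after seeing the data, gave 1052 and 622, with a shift of 0.1004. The replicate block, although numbers do not pair the libraries, gave 650 and 827, with 13 and 10 other ion transport genes and 6 of the 9, and among genes named here Itpr2 (adjusted p = 0.0720) lost its call. Of 897 values for 53 other named genes, 842 kept direction and call, 46 lost the call, 9 gained it and 0 reversed. With the coefficient of variation fixed at 0.2, those that lost it included Atp1b2, Clic6, Slc4a2, Atp2b1, Car2, Slc24a5, Stim2, Itpr1 and Sgk1. Low counts limit what can be said of Best1 and, in Bbs8+/+, of Kcnab1, which were at or under 5 counts per library, and why they were low was not tested.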

Other observations

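Calcium handling genes near the 9 gave 2 rises and 2 falls among 24 tested. The store-operated calcium sensor Stim2 rose from 118 to 157 CPM (edgeR adjusted p = 0.0127, but 0.0529 to 0.0647 without Bbs8+/+ replicate 4, Bbs8-/- replicate 2 or Bbs8-/- replicate 3) and the calcium release channel Itpr1 from 162 to 206 CPM (adjusted p = 0.0208, but 0.0790 without Bbs8+/+ replicate 2 and 0.0937 without Bbs8-/- replicate 2), while the calcium channel subunit Cacnb2 fell from 61.7 to 32.3 CPM (adjusted p = 7.62e-04) and Itpr2 from 33.7 to 20.2 CPM (adjusted p = 0.0455, and 0.0506 to 0.245 without any library other than Bbs8+/+ replicate 2 and Bbs8-/- replicate 3). The plasma membrane calcium pump Atp2b1 fell from 425 to 316 CPM (adjusted p = 4.69e-04), and the melanosomal exchanger Slc24a5 rose from 243 to 298 CPM (adjusted p = 0.0279, but 0.0538 to 0.0979 without any of 5 libraries, Bbs8+/+ replicates 3 and 4 and Bbs8-/- replicates 1, 2 and 4).

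Genes that regulate ion and water transport moved in both directions. Nedd4l, a ubiquitin ligase that acts on membrane channels, rose from 82.3 to 128 CPM (adjusted p = 5.73e-04) and the kinase Sgk1 from 472 to 573 CPM (adjusted p = 0.0203, but 0.116 without Bbs8-/- replicate 3 and 0.0811 without Bbs8-/- replicate 4). The water channel Aqp1 fell from 69.0 to 30.4 CPM (adjusted p = 9.66e-06) and the carbonic anhydrase Car2 from 79.9 to 54.0 CPM (adjusted p = 0.0104), while the membrane carbonic anhydrases Car14, at 1058 and 1022 CPM (adjusted p = 0.737), and Car12, at 359 and 389 CPM (adjusted p = 0.469), were not past the threshold.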
